A study of Mus musculus with 15 samples.

Results

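The effect of removing the prorenin receptor (PRR) from the rostral ventrolateral medulla (RVLM) was examined in mice on deoxycorticosterone acetate (DOCA) and salt. The comparison used 7 of the 15 RNA sequencing libraries of the study, and they were chosen by their labels alone. There were 3 PRR RVLM-Null libraries (labelled DOCA-CRE) and 4 WT libraries (labelled DOCA-WT). All 7 mice belonged to a line with loxP sites around exon 2 of Atp6ap2, the X-linked gene of PRR, and the treatment text of the labels gives the genotype f/f to both DOCA-salt groups. PRR RVLM-Null mice received AAV-CRE-GFP in the RVLM on both sides, and WT mice received AAV-GFP, so WT here means floxed mice with a control virus. In both groups at least 3 weeks passed before a 50 mg DOCA pellet was implanted under the skin with 0.15 M NaCl as the drinking fluid, and tissue was taken on day 13. The mice were adults, 12 to 14 weeks old at the start by the study's methods. In the study's viruses Cre and GFP were driven by a CMV promoter, which is not restricted to 1 cell type, and a punch can hold tissue beyond the RVLM and cells that the virus did not reach. Deletion of 1 exon can also leave a transcript that is still counted. The labels do not say that each library came from a separate animal, so p-values measure the spread between these libraries.

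The RVLM holds the C1 adrenergic neurons, whose axons excite sympathetic preganglionic neurons of the spinal cord and which are central to resting blood pressure. PRR binds prorenin and renin and is also an accessory protein of the vacuolar H+-ATPase (V-ATPase), the proton pump of lysosomes and synaptic vesicles. DOCA with salt is a model of hypertension with low circulating renin, in which angiotensin made within the brain has been studied as a driver. Serotonin neurons of the medullary raphe and parapyramidal region lie close to the RVLM, and many of them also contain thyrotropin-releasing hormone (Trh) or substance P (Tac1).

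Total counts were 23544224 to 30504796 in PRR RVLM-Null libraries and 25418779 to 30336765 in WT libraries, with 26668 to 42650 and 33353 to 37546 genes detected. Several properties of the libraries did not follow the groups. All mice are labelled female, but Y-linked genes were counted and Xist was nearly absent in 2 of 3 PRR RVLM-Null libraries (replicates 1 and 2) and in 1 of 4 WT libraries (replicate 3), which is called the male pattern here. Mitochondrial ribosomal RNA made up 4.80%, 3.32% and 19.1% of counts in PRR RVLM-Null replicates 1, 2 and 3, against 2.42% to 5.84% in WT libraries. The supplement of the study gives 4 PRR RVLM-Null and 3 WT samples on DOCA-salt, while the labels give 3 PRR RVLM-Null and 4 WT libraries, and the labels were followed. Over the 500 most variable genes, the library labelled PRR RVLM-Null replicate 3 lay at a mean distance of 2.14 (log2) from the other PRR RVLM-Null libraries and 1.99 from the WT libraries. Replicates 1 and 2 also lay no closer to each other (2.15) than to the WT libraries (mean 2.11), and the smallest distance within PRR RVLM-Null was between replicates 2 and 3 (1.71).

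Atp6ap2 itself (chrX:12587801-12617049, plus strand, GRCm38) was counted at 90.2, 89.6 and 145 CPM (counts scaled to a common library size) in PRR RVLM-Null libraries, against 142, 134, 154 and 144 CPM in WT libraries. Replicates 1 and 2 lay below every WT library and the library labelled PRR RVLM-Null replicate 3 lay within the WT range, against its label. Over all 7 libraries the log2 difference was -0.40 ± 0.14 (SE), and Atp6ap2 did not pass the edgeR quasi-likelihood test after Benjamini-Hochberg adjustment over all genes (adjusted p = 0.227; exact permutation p = 0.114). Without that library it was -0.67 ± 0.11 (adjusted p = 0.0123). With the male pattern as an added term and that library left out it was -0.80 (adjusted p = 0.00178). That library was singled out by its Atp6ap2 level after the data were seen, so leaving it out widens this difference by construction. The values without it, for Atp6ap2 and for every gene and list below, are a description and not a test of the deletion. Results below are therefore given with all 7 libraries and, where it changes the call, also without the library labelled PRR RVLM-Null replicate 3. The 2 libraries that then remain are both of the male pattern, against 1 of 4 WT libraries.

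With all 7 libraries, 0 genes were higher and 1 was lower in PRR RVLM-Null at an adjusted p of at most 0.05 with at least a 2-fold difference, which is 0% and 0.00673% of the 14852 protein-coding genes tested. At the adjusted p alone 3 genes passed (0.0202%), of which 2 were lower (0.0135%). They were the RNA-binding protein gene Celf6, the adaptor gene Grb10 and the kinesin gene Kif1c. At an unadjusted p under 0.05 there were 1026 higher genes (6.91%) and 1114 lower genes (7.50%), and the median log2 difference of all genes was 0.02. The ranges of the 2 groups did not overlap for 578 higher genes (3.89%) and 719 lower genes (4.84%). Without the library labelled PRR RVLM-Null replicate 3, 7 genes were higher (0.0479%) and 68 lower (0.465%) by both limits, and 183 (1.25%) passed the adjusted p alone. DESeq2 with none of the libraries left out gave 9 higher and 63 lower genes (0.0607% and 0.425%), and 35 genes were shared with the 75 called without that library, 48.6% of the DESeq2 list and 46.7% of the other. With the male pattern as a term, 0 genes passed in edgeR and 2089 had an unadjusted p under 0.05.

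**Figure D1:**
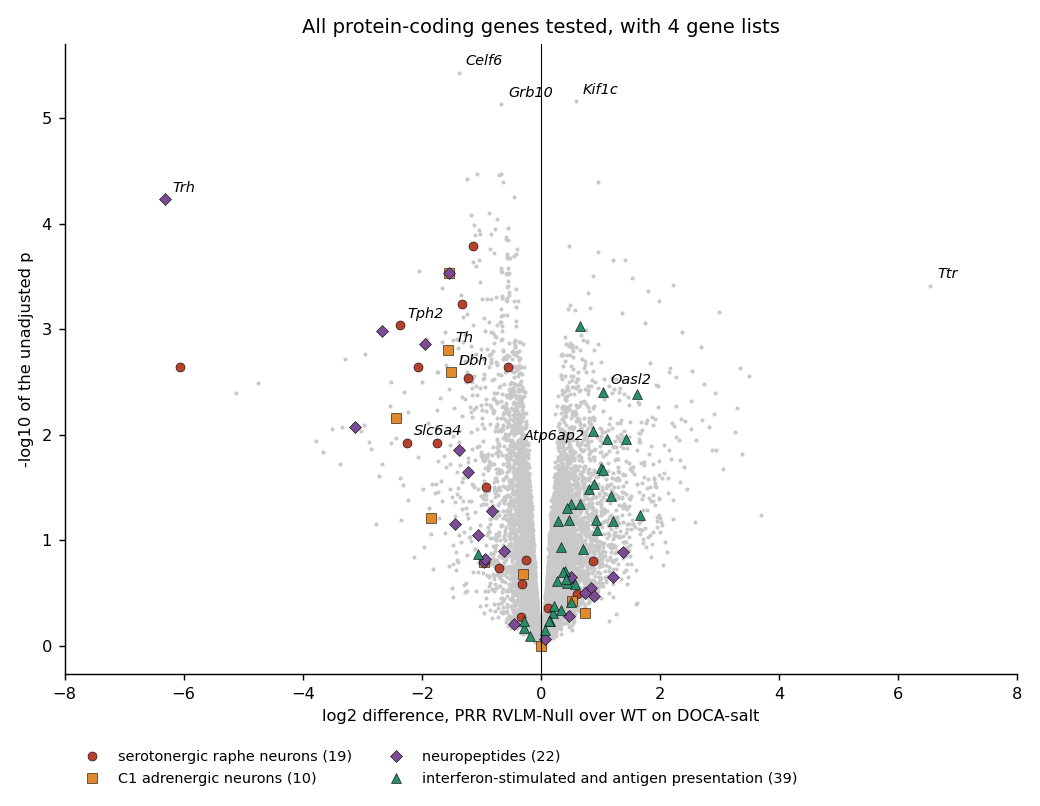
Log2 difference (PRR RVLM-Null over WT on DOCA-salt, all 7 libraries) against -log10 of the unadjusted p for each protein-coding gene tested (grey), with members of 4 lists in colour. Celf6, Grb10 and Kif1c have the smallest p-values, most coloured neuronal genes with a small p lie on the lower side, and interferon-stimulated genes lie mostly on the higher side.

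Celf6 (chr9:59577917-59607292, plus strand), a neuronal member of the CELF family of RNA-binding proteins that act on splicing, translation and RNA decay, was counted at 14.0, 10.5 and 19.5 CPM in PRR RVLM-Null libraries, against 32.7, 39.0, 46.8 and 34.0 CPM in WT libraries. Every PRR RVLM-Null library lay below every WT library. The log2 difference was -1.38 ± 0.20 (SE; adjusted p = 0.0364; two-sided exact permutation p = 0.0286, a floor set by having 3 and 4 libraries). It kept its direction under each of 20 alternatives and passed the adjusted p in 12 of them. It did not pass with only the 7 DOCA-salt libraries in the fit (adjusted p = 0.429), with limma voom (0.274) or with the male pattern as a term (0.0732). It also did not pass when PRR RVLM-Null replicate 1 (0.115) or 2 (0.0587) or WT replicate 1 (0.0733), 2 (0.113) or 3 (0.127) was left out. The 250 bases before the RefSeq start at 59578337 are printed below because this gene leads the comparison. They hold a full cAMP response element, TGACGTCA, shown in capitals, which is present on either strand in 1.55% of 32851 RefSeq promoters of this length. The window lies within the gene as Gencode annotates it, and the same window before the other RefSeq start of Celf6 does not hold the element. A match describes the letters only.
Celf6, chr9:59578087-59578336, plus strand, GRCm38.p6: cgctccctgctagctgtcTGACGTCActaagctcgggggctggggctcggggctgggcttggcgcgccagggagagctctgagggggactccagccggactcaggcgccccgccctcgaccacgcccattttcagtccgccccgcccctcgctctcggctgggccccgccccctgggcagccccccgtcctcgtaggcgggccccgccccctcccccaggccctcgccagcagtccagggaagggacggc

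Grb10 (chr11:11930508-12038683, minus strand), an imprinted gene for an adaptor that binds insulin and IGF1 receptors, was counted at 77.6, 88.9 and 105 CPM in PRR RVLM-Null libraries, against 136, 147, 145 and 145 CPM in WT libraries. The 4 WT libraries lay close together, and each PRR RVLM-Null library was below them (log2 difference -0.67 ± 0.10, adjusted p = 0.0364). Kif1c (chr11:70700548-70731964, plus strand), a kinesin motor for vesicle transport, was counted at 343, 320.1 and 329 CPM in PRR RVLM-Null libraries, against 206, 219, 238 and 221 CPM in WT libraries. It was the only gene to pass on the higher side (log2 difference 0.58 ± 0.09, adjusted p = 0.0364), and the library labelled PRR RVLM-Null replicate 3 lay with the other PRR RVLM-Null libraries. Kif1c spans the microRNA gene Mir6925 on the same strand. Grb10 passed in 11 and Kif1c in 10 of the 20 alternatives, and both had an adjusted p of 0.0732 with the male pattern as a term.

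None of the next genes by p on the lower side passed the adjusted p with all 7 libraries. Reln, the secreted glycoprotein reelin, was at 37.3, 36.4 and 53.3 CPM in PRR RVLM-Null libraries, against 82.7, 132, 114 and 69.4 CPM in WT libraries (log2 difference -1.24 ± 0.22, adjusted p = 0.0662). Syt13, an atypical synaptotagmin, was at 52.9, 44.1 and 66.0 CPM in PRR RVLM-Null libraries and 98.2, 142, 138 and 82.5 CPM in WT libraries (-1.08 ± 0.19). Hap1, the huntingtin-associated transport protein, Sez6, a dendritic membrane protein, Vat1, a vesicle amine transport protein, and the kinase gene Map2k1 differed by -0.67, -0.70, -0.63 and -0.45. In all 6 of these genes every PRR RVLM-Null library lay below every WT library, and all 6 passed without the library labelled PRR RVLM-Null replicate 3 (adjusted p between 0.015 and 0.035). Map2k1 had a narrow spread, with 90.7, 88.8 and 88.7 CPM in PRR RVLM-Null libraries against 123, 125, 129.7 and 110.2 CPM in WT libraries. Zcchc12, an X-linked transcriptional coactivator gene, averaged 59.4 ± 17.0 CPM in PRR RVLM-Null libraries (SD, n = 3) and 109 ± 3.33 CPM in WT libraries (SD, n = 4), and it also passed without that library (adjusted p = 0.00379).

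On the higher side the genes with the smallest p after Kif1c were not of 1 kind. Bcas1, a myelin protein of newly formed oligodendrocytes, was counted at 1007, 647 and 1183 CPM in PRR RVLM-Null libraries, against 411, 518, 531 and 497 CPM in WT libraries (log2 difference 0.95 ± 0.17, adjusted p = 0.0662). Tgfb3, a growth factor of the transforming growth factor beta family, was at 41.4, 29.5 and 49.6 CPM in PRR RVLM-Null libraries and 22.8, 17.4, 18.1 and 24.0 CPM in WT libraries (0.96 ± 0.20). Lrp4, an agrin receptor, averaged 54.7 ± 3.37 CPM in PRR RVLM-Null libraries and 39.6 ± 2.89 CPM in WT libraries (SD, n = 3 and 4). The groups did not overlap in these 3 genes, and Bcas1 and Lrp4 passed without the library labelled PRR RVLM-Null replicate 3 (adjusted p = 0.0436 and 0.0354). Ccnb1ip1 was at 1446, 635 and 1125 CPM in PRR RVLM-Null libraries, against 341, 600.3, 483 and 426 CPM in WT libraries. Smim3, Trim5 and Myh4 were 0.87, 1.53 and 2.22 higher on the log2 scale, at levels of 12.3 CPM or less. Ttr, transthyretin of the choroid plexus, had a log2 difference of 6.53 that rests on 1 library, with 0.0410, 59.0 and 0.282 CPM in PRR RVLM-Null libraries and 0.125 to 0.323 CPM in WT libraries (exact permutation p = 0.314).

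**Figure D2:**
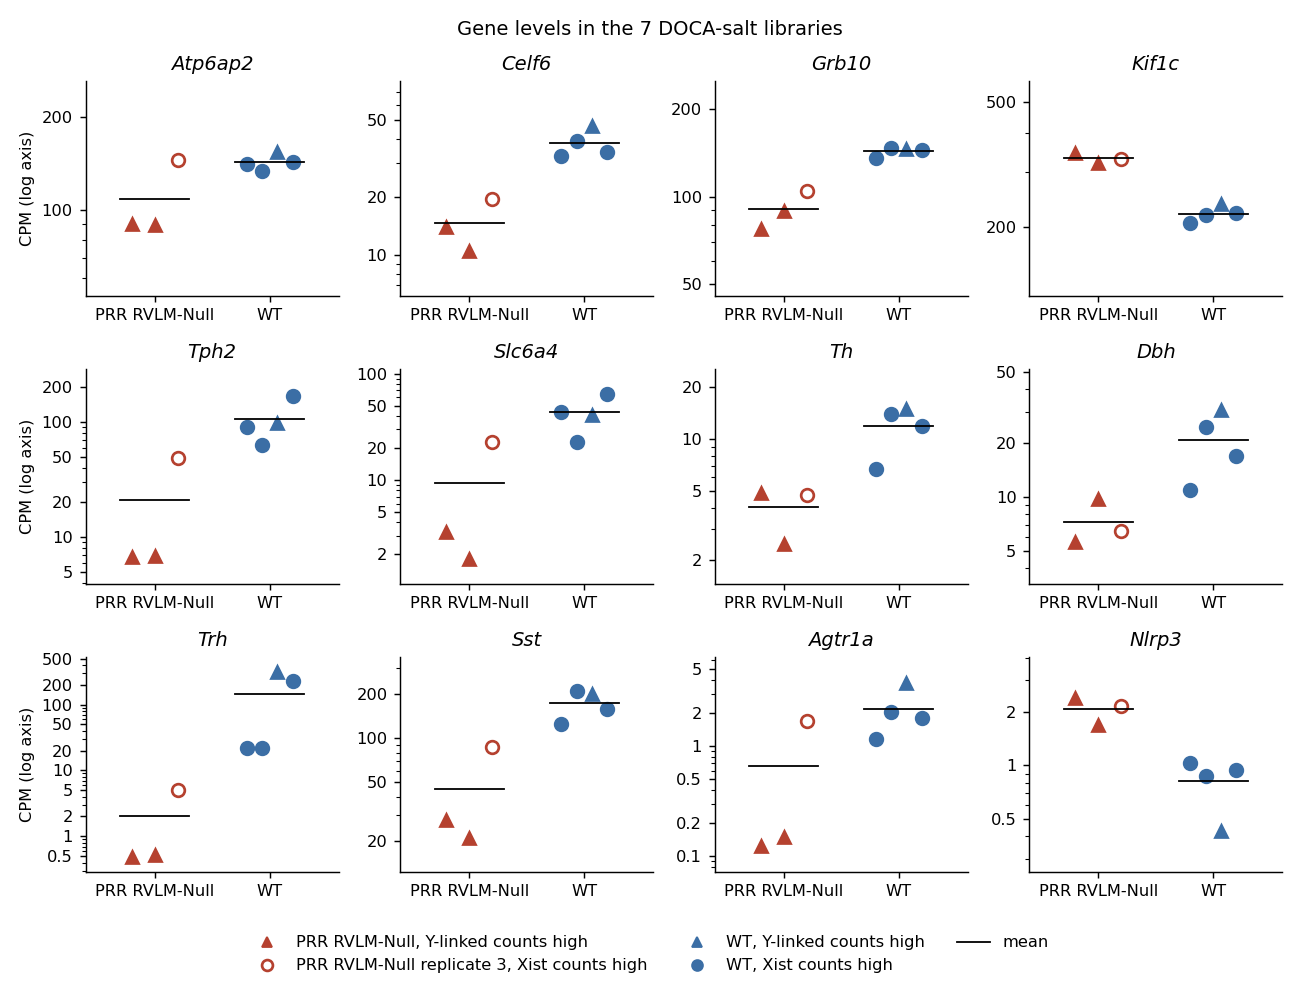
CPM on log axes for 12 genes in each of the 7 DOCA-salt libraries, with PRR RVLM-Null in red, WT in blue, triangles for the male pattern and a line at the group mean. The open circle is the library labelled PRR RVLM-Null replicate 3, which lies within the WT range for Atp6ap2 and Agtr1a and between the groups for Tph2, Slc6a4, Sst and Trh.

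The 68 genes called lower without the library labelled PRR RVLM-Null replicate 3 had a median log2 difference of -1.49 in that fit and of -1.09 with all 7 libraries. They were chosen with that contrast, so these medians are a description. The library left out lay below all WT libraries in 42 of the 68, within their range in 25 and above it in 1, and of the 7 higher genes it lay above all WT libraries in 4 and within their range in 3. Of all genes tested it lay below all WT libraries in 21.9% and above them in 24%. The same WT libraries took part in the choice of the genes, so these counts too are a description. With the male pattern as a term as well, 227 genes passed both limits, among them 68 of the 75. Of the 68 lower genes 9 are X-linked, where 3.39% of all genes tested are.

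Genes with the smallest p in that fit included Tph2, Irs4, an insulin receptor substrate, Tfap2b, a transcription factor, Slc2a13, an inositol transporter, Kcna3, a potassium channel, and the vesicle genes Mal2 and Rab26. Tfap2b was at 2.79, 1.73 and 9.42 CPM in PRR RVLM-Null libraries, against 18.4, 24.8, 15.4 and 16.2 CPM in WT libraries (log2 difference -3.05 ± 0.36 without the library labelled PRR RVLM-Null replicate 3, adjusted p = 0.0026, and -2.04 ± 0.44 with it). Irs4 was at 4.18, 3.38 and 15.1 CPM in PRR RVLM-Null libraries and 18.1, 18.5, 32.2 and 21.7 CPM in WT libraries (-2.58 ± 0.29 without that library and -1.61 with it). In Kcna3 and Rab26 the first 2 PRR RVLM-Null libraries were below every WT library, at 2.87 and 4.32 CPM and at 3.82 and 4.43 CPM, and the library labelled replicate 3 lay within the WT range at 12.02 and 9.87 CPM (-1.93 and -1.23 without it, -1.12 and -0.70 with it). Rab26 overlaps Traf7 on the same strand, and its counts may hold reads of that gene. The 7 higher genes were Ttr, Xdh (xanthine dehydrogenase), the scaffold gene Akap12 and 4 genes with roles in interferon responses or antiviral restriction, Oasl2, Parp14, Sp100 and Trim5. Xdh was at 31.3, 25.5 and 16.4 CPM in PRR RVLM-Null libraries, against 15.4, 11.9, 16.2 and 13.2 CPM in WT libraries.

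Genes of catecholamine synthesis and handling, which include the enzymes that make adrenaline in C1 neurons, lay mostly on the lower side. Of 15 members tested, 10 lay on the lower side and 5 on the higher side. At an unadjusted p under 0.05, 9 were lower and 0 higher, and 0 passed the adjusted p. The median log2 difference was -0.55, against 0.02 for all genes. This list, the C1 list and the serotonin neuron list below share members, so their counts are not independent. Of all genes 7.50% were lower and 6.91% higher at that unadjusted limit, which is the background for this list and those below. Th, tyrosine hydroxylase and the first step of the pathway, was at 4.84, 2.48 and 4.74 CPM in PRR RVLM-Null libraries, against 6.69, 13.8, 14.9 and 11.8 CPM in WT libraries (log2 difference -1.56 ± 0.41, adjusted p = 0.147). Dbh, which converts dopamine to noradrenaline, was at 5.58, 9.69 and 6.49 CPM in PRR RVLM-Null libraries and 10.9, 24.7, 30.4 and 17.0 CPM in WT libraries (-1.51 ± 0.42, adjusted p = 0.157). Neither gene's groups overlapped, and in both the library labelled PRR RVLM-Null replicate 3 lay with the other PRR RVLM-Null libraries. Pnmt, the last enzyme of adrenaline synthesis and the defining marker of C1 neurons, was near the limit of detection, at 0.0410, 0.113 and 0.508 CPM in PRR RVLM-Null libraries and 0.410, 1.13, 0.179 and 1.26 CPM in WT libraries (adjusted p = 0.375, and 0.158 without the library labelled PRR RVLM-Null replicate 3). The groups overlapped.

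Among the 10 C1 marker genes, 7 lay on the lower side and 3 on the higher side. At an unadjusted p under 0.05, 4 were lower and 0 higher. The median log2 difference was -1.23, or -0.77 without WT replicate 3. Cartpt, the precursor of the CART peptide, was at 5.74, 7.55 and 8.46 CPM in PRR RVLM-Null libraries, against 14.2, 23.9, 28.8 and 17.4 CPM in WT libraries (-1.54 ± 0.33, adjusted p = 0.0852). Slc18a2, the vesicular monoamine transporter shared by catecholamine and serotonin neurons, was at 3.69, 5.07 and 17.2 CPM in PRR RVLM-Null libraries and 30.8, 26.2, 63.5 and 64.7 CPM in WT libraries (-2.44 ± 0.79, adjusted p = 0.193, and -3.40 ± 0.93, adjusted p = 0.0797, when the library labelled PRR RVLM-Null replicate 3 was left out). The ranges of Cartpt and Slc18a2 did not overlap. In bulk tissue, fewer cells of a type and less RNA per cell cannot be told apart.

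Genes of serotonin neurons lay mostly on the lower side, most clearly in PRR RVLM-Null replicates 1 and 2. Of 19 members tested, 11 were lower and 0 higher at an unadjusted p under 0.05, and the median log2 difference was -0.92. None passed the adjusted p with all 7 libraries, and 7 passed it on the lower side without the library labelled PRR RVLM-Null replicate 3 (1.04% of all genes did so). Tph2 (tryptophan hydroxylase 2, the first step of serotonin synthesis in neurons) was at 6.69, 6.80 and 48.9 CPM in PRR RVLM-Null libraries, against 91.2, 63.1, 97.8 and 169.8 CPM in WT libraries. All 3 lay below the WT libraries, the first 2 by far the most. The log2 difference was -2.36 ± 0.58 (adjusted p = 0.131) with all 7 libraries and -3.96 ± 0.42 (adjusted p = 0.0022) without that library. Slc6a4, the serotonin transporter, was at 3.24, 1.80 and 22.8 CPM in PRR RVLM-Null libraries, against 44.0, 22.9, 41.0 and 64.9 CPM in WT libraries. Here the library labelled PRR RVLM-Null replicate 3 stood just below the lowest WT library, and the log2 difference was -2.25 (adjusted p = 0.221) with it and -4.10 (adjusted p = 0.0298) without it. Ddc, which makes both serotonin and dopamine, was at 16.0, 9.54 and 30.8 CPM in PRR RVLM-Null libraries and 42.3, 29.0, 51.7 and 64.3 CPM in WT libraries (-1.33 ± 0.31, adjusted p = 0.106, and 0.0091 without that library). Htr1a, an inhibitory serotonin receptor that is also an autoreceptor on these neurons, was at 9.76, 8.38 and 15.7 CPM in PRR RVLM-Null libraries, against 19.4, 30.3, 27.7 and 21.2 CPM in WT libraries (-1.13 with all 7, adjusted p = 0.0823, and -1.44, adjusted p = 0.0137, without that library).

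Among 12 serotonin receptor genes, 4 were lower and 0 higher at an unadjusted p under 0.05 (median log2 difference -0.27). Htr5a averaged 7.05 ± 1.10 CPM in PRR RVLM-Null libraries (SD, n = 3) and 10.3 ± 0.759 CPM in WT libraries (SD, n = 4), without overlap. Htr2c was at 62.5, 57.0 and 108 CPM in PRR RVLM-Null libraries, against 116, 159, 109 and 97.7 CPM in WT libraries, and only the first 2 lay below the WT range (adjusted p = 0.207, and 0.0366 without the library labelled replicate 3). Htr5b, which is also a marker of the inferior olive, reached 55.3 CPM in WT replicate 3 and at most 2.06 CPM in any other of the 7 libraries. WT replicate 3 was also the highest of the 7 libraries for Trh. Without it the median of the serotonin neuron list was -1.02.

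Trh (chr6:92242061-92244650, minus strand), a peptide of hypothalamic and medullary raphe neurons, had the lowest log2 difference among the genes named here. It was at 0.492, 0.526 and 5.02 CPM in PRR RVLM-Null libraries, against 21.8, 21.7, 309 and 230.5 CPM in WT libraries. No PRR RVLM-Null library reached the WT range, although the WT libraries themselves fell into a lower and a higher pair. The log2 difference was -6.31 ± 1.16 (adjusted p = 0.0781) with all 7 libraries and -8.14 ± 1.49 (adjusted p = 0.0202) when the library labelled PRR RVLM-Null replicate 3 was left out. The promoter of Trh is shown because of the size of this difference. Capitals mark 1 half-site of corticosteroid receptors (TGTTCT on this strand, AGAACA on the other), which DOCA-activated mineralocorticoid receptors can bind, and overlapping ETS cores (TTCCGG and CCGGAA). The half-site is found in 16.1% and the ETS core in 12.03% of the same 32851 promoters.
Trh, chr6:92244651-92244900, minus strand, GRCm38.p6: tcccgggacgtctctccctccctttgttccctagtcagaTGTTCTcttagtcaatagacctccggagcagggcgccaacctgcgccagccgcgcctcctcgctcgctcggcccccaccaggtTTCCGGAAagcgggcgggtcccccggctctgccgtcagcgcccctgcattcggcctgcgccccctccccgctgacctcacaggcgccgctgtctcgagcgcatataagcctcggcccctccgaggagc

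Of 22 neuropeptide genes tested, 7 were lower and 0 higher at an unadjusted p under 0.05 (median log2 difference -0.89). Without the library labelled PRR RVLM-Null replicate 3, 3 passed the adjusted p on the lower side, as 1.04% of all genes did. Sst, somatostatin of inhibitory neurons, was at 27.9, 21.0 and 86.6 CPM in PRR RVLM-Null libraries, against 125, 209.8, 201 and 159 CPM in WT libraries (-1.95 ± 0.50, adjusted p = 0.145, and -2.83 ± 0.51, adjusted p = 0.0191, without that library). Tac1, the precursor of substance P, was at 1.39, 1.84 and 5.02 CPM in PRR RVLM-Null libraries and 5.66, 21.8, 18.5 and 22.4 CPM in WT libraries (-2.67 ± 0.67, adjusted p = 0.14, and -3.39 ± 0.79, adjusted p = 0.0519, without that library). Neither overlapped between groups. Crh, corticotropin-releasing hormone, overlapped, with 1.72, 0.939 and 6.21 CPM in PRR RVLM-Null libraries and 3.36, 11.4, 77.6 and 6.60 CPM in WT libraries. On the receptor side, 12 of 36 neuropeptide and opioid receptor genes were lower (7.50% of all genes were) and 0 higher at an unadjusted p under 0.05 (median -0.29). Glp1r, the receptor for glucagon-like peptide 1, was at 5.83, 10.8 and 14.7 CPM in PRR RVLM-Null libraries, against 26.7, 38.3, 27.3 and 17.8 CPM in WT libraries, with separate ranges.

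Of 28 sodium, calcium and HCN channel genes, 11 were lower (7.50% of all genes were) and 0 higher at an unadjusted p under 0.05. Their median log2 difference was -0.17. Scn3b, a sodium channel beta subunit, was at 19.2, 14.4 and 31.9 CPM in PRR RVLM-Null libraries, against 45.7, 47.9, 68.3 and 43.9 CPM in WT libraries (-1.24 ± 0.30, adjusted p = 0.118, and 0.0278 with the library labelled replicate 3 left out). The ranges were separate. Scn2a, the pore-forming subunit of a major axonal sodium channel, averaged 109 ± 41.2 CPM in PRR RVLM-Null libraries (SD, n = 3) and 181 ± 24.7 CPM in WT libraries (SD, n = 4; adjusted p = 0.153, and 0.015 with that library left out). In the CELF family, all 6 members, Celf6 included, lay on the lower side, 4 of them at an unadjusted p under 0.05, with a median of -0.63. This list was chosen with the earlier result for Celf6 known, so these counts are a description. Celf4 came next after Celf6, with 186, 160.0 and 237 CPM in PRR RVLM-Null libraries against 316, 358, 362 and 268 CPM in WT libraries (-0.74 ± 0.14, adjusted p = 0.0823, and -0.91 ± 0.14, adjusted p = 0.0123, with the library labelled replicate 3 left out). Glutamatergic neuron genes had a median of -0.60, with 3 lower and 0 higher of 8 at an unadjusted p under 0.05. GABAergic and glycinergic neuron genes had a median of -0.44, with 2 lower and 0 higher of 10. The 15 neurofilament and pan-neuronal genes had a median of -0.13, with 1 higher and 2 lower. Among them Syt1, the calcium sensor of fast transmitter release, was at 165, 95.9 and 251 CPM in PRR RVLM-Null libraries and 357, 472, 703 and 272 CPM in WT libraries (adjusted p = 0.145, and 0.0438 with that library left out), and Nefh, the heavy neurofilament chain, was 0.81 higher on the log2 scale (adjusted p = 0.24).

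**Figure D3:**
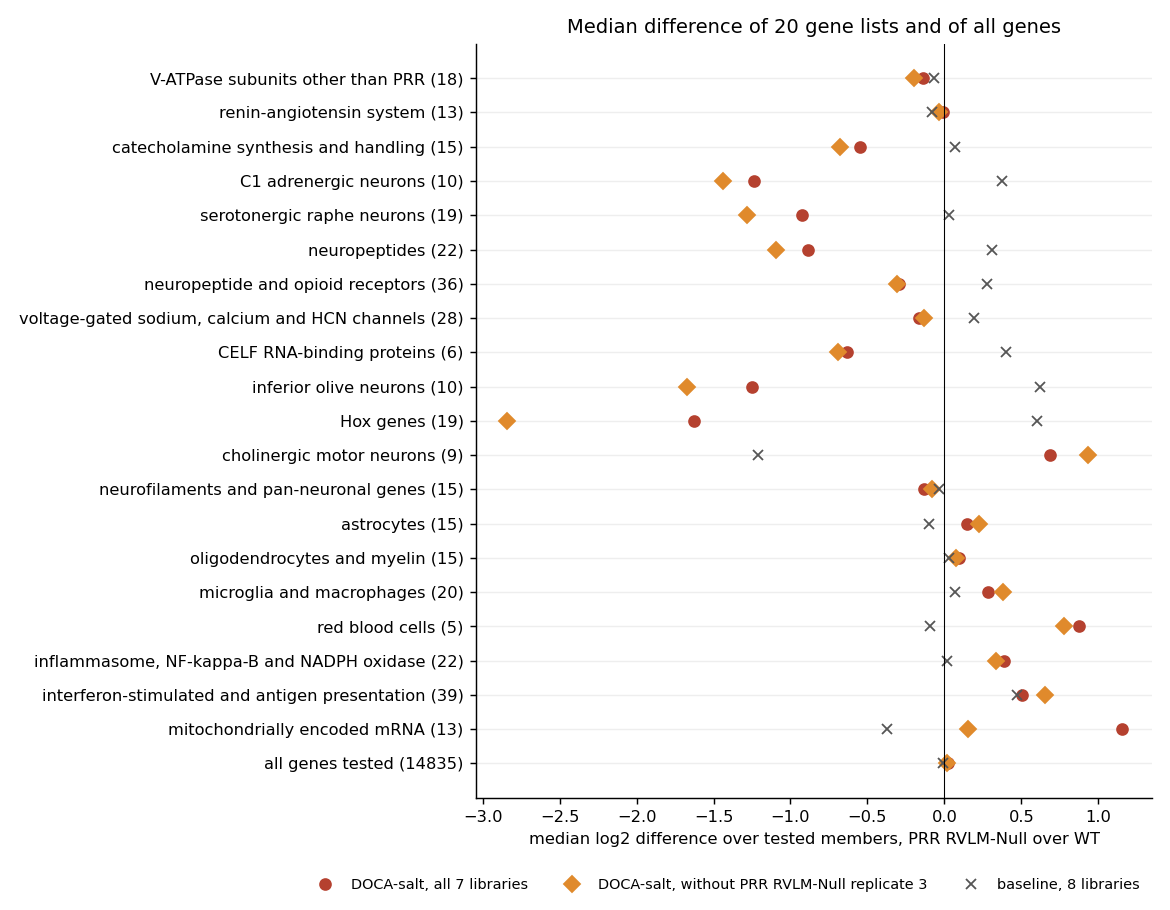
Median log2 difference (PRR RVLM-Null over WT) of 20 gene lists and of all genes tested, on DOCA-salt with all 7 libraries (circles), without the library labelled PRR RVLM-Null replicate 3 (diamonds) and at baseline (crosses), with the number of tested members in brackets. Monoamine, neuropeptide, olive and Hox lists lie below 0 on DOCA-salt, the interferon list is near 0.5 in both cohorts, and the mitochondrial median of 1.15 is 0.16 without that library.

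Genes of the renin-angiotensin system did not share a direction, with 2 higher and 2 lower of 13 tested at an unadjusted p under 0.05, Atp6ap2 included, and a median of -0.01. Agtr1a, the main angiotensin II receptor of mouse brain, was at 0.123, 0.150 and 1.69 CPM in PRR RVLM-Null libraries, against 1.15, 2.04, 3.77 and 1.78 CPM in WT libraries. The first 2 PRR RVLM-Null libraries were far below all WT libraries, and the library labelled replicate 3 lay within the WT range (-1.83 ± 0.76, adjusted p = 0.29, and -3.93 ± 0.77, adjusted p = 0.0278, without it). Enpep, aminopeptidase A, was at 15.1, 5.03 and 10.9 CPM in PRR RVLM-Null libraries and 3.53 to 6.60 CPM in WT libraries, with overlap. Agtr1a counts in the first 2 PRR RVLM-Null libraries were close to the limit of detection.

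V-ATPase subunits other than PRR had a median log2 difference of -0.14. Of 18 tested, 4 were lower (7.50% of all genes were) and 0 higher at an unadjusted p under 0.05, and 0 passed the adjusted p. Atp6v1a, the catalytic subunit, was at 302, 362 and 367 CPM in PRR RVLM-Null libraries, against 438, 419.6, 413 and 383 CPM in WT libraries (-0.27 ± 0.09, adjusted p = 0.219). Its ranges did not overlap, and those of Atp6v0b, Atp6v1b2 and Atp6v0a1, the other 3, did. The 33 lysosome and autophagy genes had a median of -0.06, with 1 higher and 2 lower. Gaa, lysosomal alpha-glucosidase, was at 262, 323 and 289 CPM in PRR RVLM-Null libraries, against 401, 484, 506 and 337 CPM in WT libraries (-0.57 ± 0.13, adjusted p = 0.1), and Becn1 of autophagy was 0.23 higher on the log2 scale.

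Interferon-stimulated and antigen presentation genes lay on the higher side. Of 39 tested, 14 were higher and 0 lower at an unadjusted p under 0.05, 0 passed the adjusted p, and the median log2 difference was 0.50. Ddx58, the RNA sensor RIG-I, was at 15.9, 11.6 and 13.1 CPM in PRR RVLM-Null libraries, against 7.84, 7.88, 10.9 and 7.86 CPM in WT libraries (0.65 ± 0.16, adjusted p = 0.131), without overlap. Oasl2 was at 32.8, 19.7 and 11.1 CPM in PRR RVLM-Null libraries and 14.8, 7.59, 9.08 and 9.88 CPM in WT libraries. Ifi44 was at 9.81, 2.22 and 2.93 CPM in PRR RVLM-Null libraries and 2.30, 1.17, 0.861 and 2.20 CPM in WT libraries. In both, replicate 1 stood highest and the groups overlapped. In the cohort without DOCA-salt, from other libraries, the median of this list was 0.47.

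Inflammasome, NF-kappa-B and NADPH oxidase genes had a median of 0.39, with 5 higher and 0 lower of 22 tested at an unadjusted p under 0.05. Nlrp3, the sensor of the inflammasome, was at 2.38, 1.69 and 2.14 CPM in PRR RVLM-Null libraries, against 1.03, 0.876, 0.431 and 0.943 CPM in WT libraries (1.33 ± 0.46, adjusted p = 0.219). The ranges were separate, and the library labelled PRR RVLM-Null replicate 3 lay between the other 2. Cyba, a membrane subunit of the NADPH oxidase, and Nfkb1 overlapped between groups (log2 differences 0.64 ± 0.35 and 0.17 ± 0.11, adjusted p = 0.428 and 0.508). Microglia and macrophage markers had a median of 0.29, with 1 higher and 0 lower of 20, and the list level (the mean over members of log2 CPM + 0.5 relative to the WT mean) was -0.07, 0.53 and 0.15 in PRR RVLM-Null libraries and -0.31 to 0.47 in WT libraries.

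Markers of cells outside the C1 region, and of position along the medulla, were examined as well. With all 7 libraries, 0 of the Hox, olive and cholinergic genes passed the adjusted p. Of 19 Hox genes tested, which mark levels of the hindbrain and spinal cord, 12 were lower and 0 higher at an unadjusted p under 0.05, with a median log2 difference of -1.63. Their list level was -1.44, -1.47 and -0.56 in PRR RVLM-Null libraries, against -0.66, 0.12, 1.05 and -0.51 in WT libraries, so the first 2 PRR RVLM-Null libraries were below the WT range, the library labelled replicate 3 lay within it and WT replicate 3 was highest. Hoxb3 was at 5.91, 4.70 and 9.65 CPM in PRR RVLM-Null libraries and 12.9, 25.9, 27.7 and 14.0 CPM in WT libraries. Of 10 inferior olive genes, 6 were lower and 1 higher (median -1.25), with list levels of -0.87, -1.40 and -0.37 in PRR RVLM-Null libraries against -0.60, -0.36, 1.14 and -0.17 in WT libraries, with overlap. In the fit that omits PRR RVLM-Null replicate 3, 2 of the 10 olive genes passed on the lower side, against 1.04% of all genes. That fit had 0 Hox and 0 cholinergic genes passing. Pou4f1, a transcription factor of the olive and of sensory nuclei, was at 0.697, 0.902 and 1.02 CPM in PRR RVLM-Null libraries and 0.656, 3.96, 112 and 4.40 CPM in WT libraries. Cholinergic motor neuron genes spanned a wide range in both groups, with list levels of 0.49, 2.18 and 0.78 in PRR RVLM-Null libraries and 1.75, -0.80, -2.03 and 1.08 in WT libraries, and 0 of 9 had an unadjusted p under 0.05. Slc18a3, the vesicular acetylcholine transporter, was at 52.1, 334 and 74.9 CPM in PRR RVLM-Null libraries and 208, 22.9, 6.85 and 84.3 CPM in WT libraries (adjusted p = 0.698). The part of punch position in the neuronal differences was not tested.

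**Figure D4:**
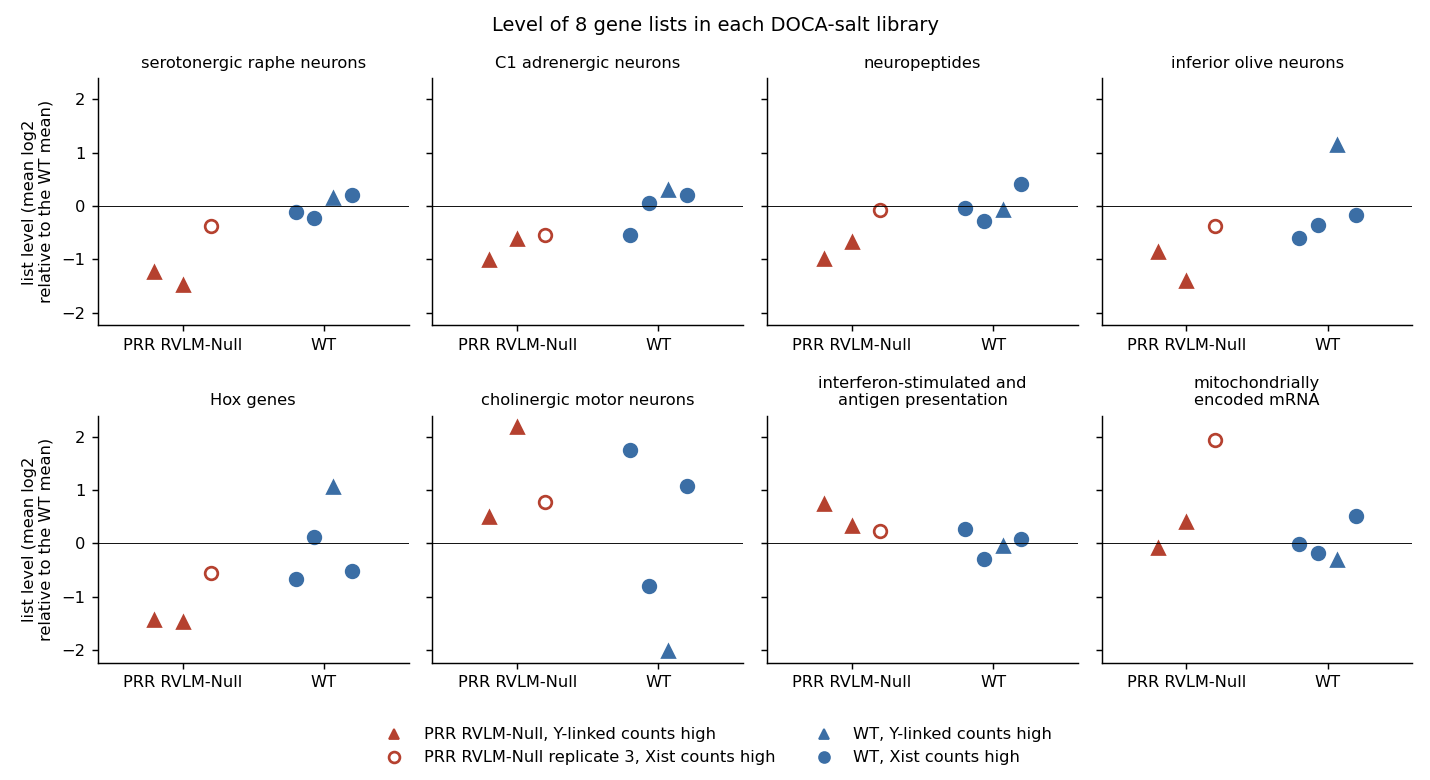
List level (mean over members of log2 CPM + 0.5, relative to the mean of the WT libraries) of 8 gene lists in each library, with PRR RVLM-Null in red, WT in blue and triangles for the male pattern. For the serotonin and Hox lists PRR RVLM-Null replicates 1 and 2 lie below all WT libraries, and the mitochondrial list stands at 1.93 in the library labelled PRR RVLM-Null replicate 3 (open circle).

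Astrocyte, oligodendrocyte, endothelial and pericyte lists had medians above the 0.02 of all genes. Of all genes 6.91% were higher at an unadjusted p under 0.05. Astrocyte markers had a median of 0.15 and oligodendrocyte and myelin markers of 0.09, each with 2 higher and 0 lower of 15 at an unadjusted p under 0.05. Mobp, a myelin protein, was at 3233, 3632 and 5493 CPM in PRR RVLM-Null libraries, against 2032, 1748, 3079 and 2485 CPM in WT libraries (0.82 ± 0.19, adjusted p = 0.111), without overlap. Endothelial markers had a median of 0.16 and pericyte and smooth muscle markers of 0.20, each with 3 higher. Red blood cell genes had a median of 0.88, with 4 of 5 higher, and Alas2, the heme synthesis enzyme of erythroid cells, was at 5.83, 2.29 and 3.67 CPM in PRR RVLM-Null libraries, against 1.89, 1.96, 0.933 and 2.06 CPM in WT libraries. Of 12 meningeal, choroid plexus and ependymal markers, 2 were higher and 1 lower (median 0.41). Mitochondrially encoded mRNA had a median of 1.15, with 9 of 13 higher, but the list level was -0.10, 0.40 and 1.93 in PRR RVLM-Null libraries and -0.31 to 0.51 in WT libraries, and without the library labelled PRR RVLM-Null replicate 3 the median was 0.16 with 1 of 13 higher (8.58% of all genes). mt-Nd6 was at 508, 421 and 1329 CPM in PRR RVLM-Null libraries, against 288, 230.4, 212 and 399 CPM in WT libraries. Among 18 corticosteroid receptor and steroid-responsive genes, 1 was higher and 0 lower (median 0.11), Zbtb16, at 81.1, 82.3 and 54.5 CPM in PRR RVLM-Null libraries and 68.7, 30.8, 53.0 and 55.9 CPM in WT libraries.

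The 4 WT libraries held 3 of the female pattern and 1 of the male pattern, so both groups were also set side by side within each pattern, without a test. The genes were named with these libraries, so the values are a description. Within the male pattern the WT side was WT replicate 3 alone. Within the female pattern the PRR RVLM-Null side was the library labelled replicate 3 alone. The values therefore cannot separate the pattern from these single libraries. Celf6 differed by -1.90 within the male pattern and -0.84 within the female pattern, Kif1c by 0.48 and 0.61, and Tph2 by -3.76 and -1.01. For Th the values were -1.95 and -1.05, and for Trh -8.26 and -3.14. Atp6ap2 differed by -0.78 within the male pattern and 0.06 within the female pattern.

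The same contrast without DOCA-salt was available from 4 PRR RVLM-Null and 4 WT libraries taken 3 weeks after the virus. They were a separate cohort whose treatment text gives the genotype f/y, which in the study denotes males. Only PRR RVLM-Null replicates 3 and 4 and WT replicate 4 of that cohort had the male pattern. Its other libraries had the female pattern. No gene passed the adjusted p at baseline in edgeR, and 1498 had an unadjusted p under 0.05. The difference between the contrasts, DOCA-salt minus baseline, was tested in the same model, with 1 gene higher (0.00673%) and 48 lower (0.323%) by both limits and 76 (0.512%) at the adjusted p alone. Cohort and DOCA-salt cannot be told apart in it. The count was 0 without PRR RVLM-Null replicate 1, without replicate 2 or without WT replicate 3, and 6 without WT replicate 2. It was 149 without WT replicate 1, 131 without WT replicate 4 and 207 without the library labelled PRR RVLM-Null replicate 3. Leaving out a baseline library, a step chosen after seeing the data, gave 0 without PRR RVLM-Null replicate 3 or 4 or WT replicate 1 or 3, 16 without PRR RVLM-Null replicate 2, 21 without WT replicate 2, 64 without PRR RVLM-Null replicate 1 and 51 without WT replicate 4. Where the count was 0 in edgeR, 1925 to 2490 genes had an unadjusted p under 0.05. Celf6 averaged 14.1 CPM in PRR RVLM-Null and 10.6 CPM in WT libraries at baseline, a log2 difference of 0.41 there and of -1.38 on DOCA-salt, which gives -1.80 ± 0.27 (adjusted p = 0.0196). Reln (-1.87 ± 0.29), Syt13 (-1.67 ± 0.26) and Celf4 (-1.30 ± 0.19) had the same adjusted p of 0.0196, and at baseline each was on the higher side. The differences of Tph2 (-1.86 ± 0.92) and Th (-2.60 ± 0.58) did not pass (adjusted p = 0.321 and 0.0554). Tph2 averaged 1.84 CPM in PRR RVLM-Null and 2.66 CPM in WT libraries at baseline, against 105 CPM in WT libraries on DOCA-salt. Slc6a4 and Trh averaged under 1 CPM in both groups at baseline. The baseline contrasts of these 3 genes therefore rest on low counts and say little. Kif1c was 0.03 higher at baseline, and its difference of 0.55 ± 0.12 had an adjusted p of 0.0547.

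**Figure D5:**
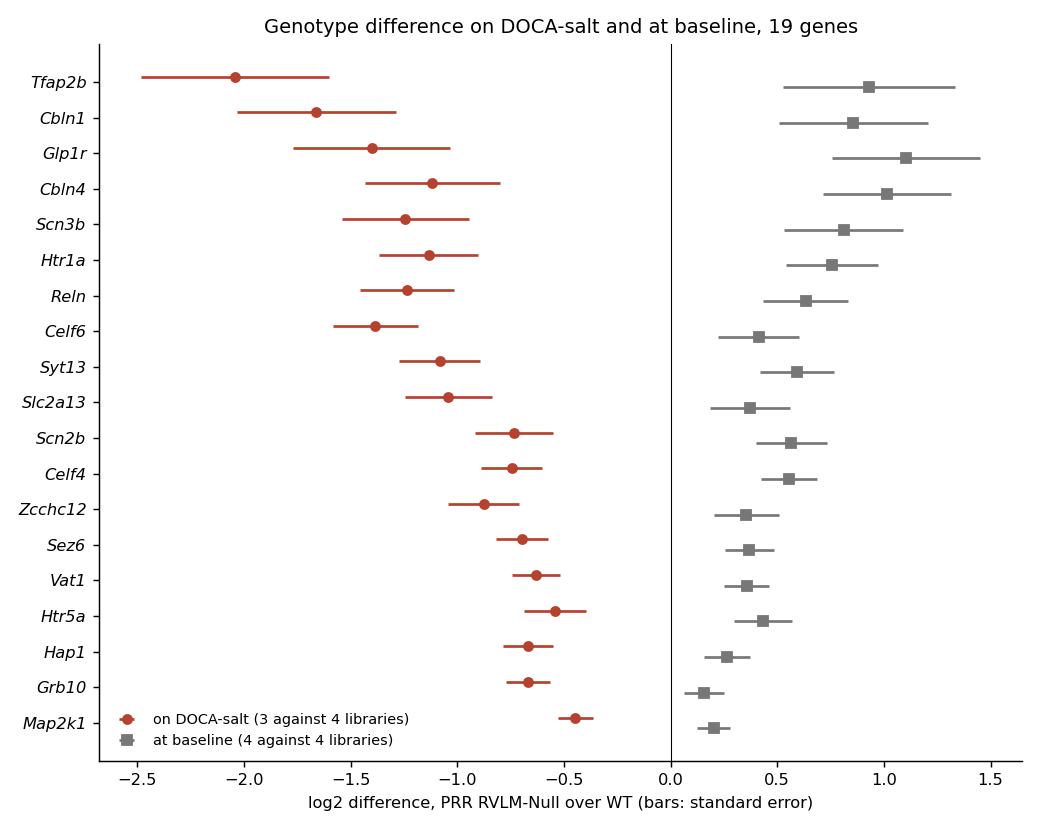
Log2 difference between PRR RVLM-Null and WT on DOCA-salt (red circles, 3 against 4 libraries) and at baseline (grey squares, 4 against 4), with standard errors, for the 19 named genes whose contrasts differed at an adjusted p of at most 0.05. All 19 are on the lower side on DOCA-salt and on the higher side at baseline, where no gene passed the adjusted p. The genes were chosen by their DOCA-salt values and by this difference, which favours opposite sides.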

How the data were processed

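Bilateral RVLM punches were taken and their RNA was sequenced from stranded, low-input libraries. Reads were aligned by the authors with STAR to the GRCm38.p6 mouse genome with Gencode annotation. The program used for counting is not given in the sources used here. The authors deposited raw read counts per gene for 55421 genes in 15 libraries, and these counts were used as deposited. Deposited tables of the authors' own comparisons (log2 fold change, FDR and RPKM) were not used.

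Of 21926 protein-coding genes, the 14852 that exceeded 1 CPM in any library were tested, and 37 of these share a symbol with another gene. Counts were scaled by TMM and tested with edgeR 4.0.16 (quasi-likelihood, all 15 libraries, 1 term per group) in R 4.3.3, with Benjamini-Hochberg adjustment over all genes tested. The biological coefficient of variation was 0.192. A gene was called at an adjusted p of at most 0.05 with at least a 2-fold difference. Single genes were also compared by an exact two-sided permutation test, whose smallest p is 0.0286. Alternatives were DESeq2 1.42.0, limma 3.58.1 voom, edgeR's likelihood ratio test, other scalings and filters, the male pattern as a term, a replicate block and each DOCA-salt library left out, and for the difference between cohorts also each baseline library, which was added after seeing the data. Scripts were tested on simulated data. Because the model was fitted to all groups, the baseline libraries share in the estimate of spread.

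Genes named were Atp6ap2, called genes, the 10 genes with the smallest p in each direction, the same 10 among those called without PRR RVLM-Null replicate 3 (in both cases only genes averaging 1 CPM or more in the group where they are higher), at most 4 genes per described list, taken by p, and genes the study itself discusses. A few genes that this rule names are not reported here. The members and lists were chosen with earlier results of these data known. Gene positions are from Gencode and promoters from RefSeq, both on GRCm38.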

Additional observations from a re-analysis of the deposited data

Results flagged for a closer look

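In 132 named genes the highest and lowest of the 4 WT libraries on DOCA-salt were compared with the rest of the group, and 11 stood apart, where chance gives about 1 in 20. WT replicate 3 was highest for Pou4f1 (111.9 CPM), Crh (77.62 CPM), Htr5b (55.34 CPM), Hoxd1 (9.008 CPM), Scn3b (68.26 CPM) and Ddx58 (10.87 CPM), and lowest for Alas2 (0.9331 CPM). WT replicate 4 was highest for mt-Cytb (3419.0 CPM), Hsd11b1 (21.89 CPM), Hbb-bs (8.205 CPM) and Trim5 (1.501 CPM). PRR RVLM-Null, with 3 libraries, was too small a group for this comparison.

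In 19 named genes the PRR RVLM-Null over WT contrast differed between DOCA-salt and baseline by the test of the difference in edgeR. RNA-binding and transcription factor genes were Celf6 (log2 difference of the contrasts -1.797), Celf4 (-1.298), Tfap2b (-2.973) and Zcchc12 (-1.232). Receptors and sodium channel subunits were Htr1a (-1.893), Htr5a (-0.9763), Glp1r (-2.505), Scn3b (-2.054) and Scn2b (-1.299). Synaptic, secreted and transport genes were Syt13 (-1.674), Reln (-1.869), Cbln1 (-2.518), Cbln4 (-2.132), Hap1 (-0.9308), Sez6 (-1.066), Vat1 (-0.9874) and Slc2a13 (-1.413). Signalling genes were Grb10 (-0.8257) and Map2k1 (-0.6478). Cohort and DOCA-salt cannot be told apart in these values. The genes were chosen by their DOCA-salt values and by this difference, so their shared sign is a description.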

How the results depend on the processing

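The count of 1 gene called on DOCA-salt was 3 at the adjusted p alone, 72 with DESeq2, 77 with the likelihood ratio test, 0 with limma voom (1488 at an unadjusted p under 0.05), 3 with library size only, 21 with no filter on low counts, 0 with only the 7 DOCA-salt libraries, 0 with the male pattern as a term and 227 with that term and without the library labelled PRR RVLM-Null replicate 3. Leaving out each of the 7 DOCA-salt libraries in turn gave 0 to 75 genes. It was 75 without the library labelled PRR RVLM-Null replicate 3, 1 (a higher gene, so not Celf6) without PRR RVLM-Null replicate 2, 21 without WT replicate 4, and 0 without PRR RVLM-Null replicate 1 or WT replicate 1, 2 or 3. The 49 genes of the difference between DOCA-salt and baseline became 280 with DESeq2, 270 with the likelihood ratio test, 147 with library size only, 406 with the male pattern as a term and without that library, and 0 to 207 with each of the 7 DOCA-salt libraries or, chosen after seeing the data, each of the 8 baseline libraries (0 to 64) left out. Celf6 was at -1.43 with voom, -1.40 with only the 7 libraries, -1.39 with the male pattern as a term, and -1.64 to -1.19 with each DOCA-salt library left out, its adjusted p rising above 0.05 in 5 of those 7. Atp6ap2 was at -0.80 with the male pattern as a term and without that library, and -0.67 to -0.28 with each DOCA-salt library left out. Without PRR RVLM-Null replicate 2 Ret (-0.32, with 1.02 the highest with a library left out) and Slc18a3 (-0.34, highest 2.01) changed sign. The cause of these changes was not tested. No other named gene changed sign (2 of 2686 values), and 29 of 560 list medians moved.

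With the replicate number as a block 2 genes were called. The pairing was checked over 3 same-numbered pairs, and 0 had a correlation over 0.1 (-0.22 to -0.05). Pairs with different numbers ran from -0.20 to 0.37. The number was therefore not used as a pairing in the main fit, and a shared batch or litter was not tested.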

Other observations

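Some genes of interest were too low to be tested among protein-coding genes. Il18r1, a subunit of the interleukin 18 receptor, had 12, 9 and 18 counts in PRR RVLM-Null libraries on DOCA-salt, against 6, 2, 1 and 4 in WT libraries, so all 3 were higher. At baseline it had 8, 2, 2 and 1 counts in PRR RVLM-Null libraries and 0 in each WT library. Ren1, renin, had 1, 5 and 13 counts in PRR RVLM-Null libraries and 4, 3, 1 and 0 in WT libraries on DOCA-salt, with overlap. Both genes were chosen for display with these data known.

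With all gene types and all 7 DOCA-salt libraries in the fit, 0 noncoding genes were called by edgeR. Without the library labelled PRR RVLM-Null replicate 3, some were. Examples are the long noncoding RNA genes AI504432 (log2 difference -1.66, adjusted p = 0.0018) and Gm15802 (2.26, adjusted p = 0.0359). Both were chosen after their values were seen, so the values are a description. With all 7 libraries, 190 of 916 unconfirmed transcript regions (TEC) were higher and 7 lower at an unadjusted p under 0.05. Of 1504 long noncoding RNA genes 136 were higher and 37 lower, and of 208 small nucleolar RNA genes 26 were higher and 2 lower. Of 14852 protein-coding genes in the same fit, 876 were higher and 1246 lower. Over all 18756 genes of that fit, 2695 had an unadjusted p under 0.05 in either direction. Mitochondrial ribosomal RNA was also high in the library labelled PRR RVLM-Null replicate 3, and its part in these counts was not tested.

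Of 35 ionotropic GABA, glycine and glutamate receptor genes, 8 were lower (7.50% of all genes were) and 0 higher at an unadjusted p under 0.05. Their median log2 difference was -0.18. Cerebellar neuron markers, which should be rare in this tissue, had a median of -0.73 with 4 of 10 lower. Immediate early genes had a median of -0.12, with 1 higher and 4 lower of 20. Wnt pathway genes had a median of 0.08 with 6 higher and 3 lower of 34, and circadian clock genes a median of 0.10 with 3 higher and 0 lower of 20.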
